A study of Mus musculus with 9 samples.

Results

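The genes of glycolysis and glycogen metabolism were examined in mandibular RNA of WT mice and of mice labelled *FcγRIIB*-/-. The set holds 35 genes out of 27179 in the count table. Its members were listed by gene symbol and run from glucose and lactate transporters, through the enzymes of glycolysis and the enzymes on either side of pyruvate, to the enzymes of glycogen storage and breakdown. All 35 passed the filter on low counts, which left 16329 genes for testing. Whole mandibles with their teeth were taken from male mice at 6 months of age, and poly(A) RNA of each mouse gave 1 library. There were 5 WT libraries and 4 libraries labelled *FcγRIIB*-/-, called the labelled libraries here. Both genotypes were on the C57BL/6 background, and the deletion that the label names is a germline one, with no cell-type promoter. The question of the study was how the mandibular transcriptome differs between the genotypes in this mouse model of lupus.

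Glycolysis splits glucose into pyruvate and yields ATP without oxygen, and glycogen is the store from which muscle draws its glucose. Several steps have more than one gene for the same reaction. One isoform is made mainly in skeletal muscle (*Pgam2*, *Eno3*, *Pfkm*, *Pygm* and the insulin-responsive transporter *Slc2a4*), while others (*Pgam1*, *Eno1*, *Pfkl*, *Pfkp*, *Pygl*, *Slc2a1*) are the main forms of other tissues. A whole jaw with muscle, bone, marrow, teeth and mucosa can hold both kinds.

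Several facts about the libraries bear on every value below. The libraries held between 21453880 and 28991631 counts. The targeted gene *Fcgr2b* was not lower in the labelled libraries. Its mean was 27.8 ± 2.90 CPM (SD, n = 4) there and 24.0 ± 8.28 CPM (SD, n = 5) in WT, CPM being counts relative to the normalized depth of the library (log2 fold change 0.21, edgeR adjusted p = 0.442). Directions are therefore given by label. Among WT mice, replicate 2 had the lowest and replicate 1 the highest sum of 15 skeletal muscle markers (9626 and 22364 CPM), and replicate 5 had the highest sum of neutrophil and myeloid markers (3555 CPM, against between 1182 and 1863 in the other WT mice). WT replicates 2 and 5 stand apart in this sense, and results are also given without them. Muscle markers summed to between 23102 and 40786 CPM in the labelled libraries, above every WT mouse. Of the 15, 8 were higher, 0 were lower and 7 did not pass, with a median log2 fold change of 0.83. Leaving out replicate 1 of the labelled libraries left 5 of them higher. Osteoblast markers summed to between 27382 and 43853 CPM in WT and to between 29854 and 41231 in the labelled libraries, sums made up mostly of *Col1a1*. Of the 8 osteoblast markers 0 were higher and 2 were lower, *Ibsp* (log2 fold change -0.64) and *Sp7* (-0.25). Sums of other markers differed more. Erythroid markers fell from between 1876 and 2234 CPM in WT to between 110 and 496, with 9 of 9 tested lower, and neutrophil and myeloid markers fell from between 1182 and 3555 to between 145 and 436, with 10 of 10 lower. In bulk RNA, fewer cells of a type and less RNA per cell cannot be told apart. Of the others, keratinized epithelium markers summed to between 5471 and 19861 CPM in WT and to between 4326 and 5421 in the labelled libraries, with 7 lower and 1 higher of 9 tested. Adipocyte markers summed to between 50.1 and 90.0 CPM and to between 117 and 167, with *Fabp4* higher and *Adipoq* lower of 4 tested. No marker list summed to 0 in any library.

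Of the 35 members, 10 were higher in the labelled libraries (28.6%), 4 were lower (11.4%) and 21 did not pass, where passing means an adjusted p below 0.05 over all tested genes in the quasi-likelihood test of edgeR. Over all genes tested the same rule called 14% higher and 19.3% lower, 33.3% in either direction. In this fit the share of members called higher was thus above that of the table, and the share called lower was below it. The 10 higher genes were *Slc2a4*, *Hk2*, *Pfkl*, *Pfkfb1*, *Aldoa*, *Pgam2*, *Eno3*, *Ldha*, *Ldhb* and *Phkg1*, and the 4 lower genes were *Slc16a1*, *Hk1*, *Hk3* and *Pygl*. Members had a median log2 fold change of 0.26, against 0.01 for all tested genes, and 26 members had a positive and 9 a negative log2 fold change. The groups did not overlap in 7 of the higher members (12.1% of all genes tested) and in all 4 lower members (17.5% of all genes tested), and 29.6% of all genes tested were separated in either direction. The number of higher members depended on single libraries and on scaling, while 4 or 5 members were lower in every alternative. Without replicate 1 of the labelled libraries 4 members were higher, namely *Pfkl*, *Aldoa*, *Pgam2* and *Eno3*. In that fit 1854 of 16493 tested genes were higher, so the share of members called higher was close to that of the table. With library totals in place of normalized library sizes 5 were higher and 4 lower, and *Slc2a4*, *Pfkfb1*, *Aldoa*, *Pgam2* and *Eno3* were the higher ones. Of all 16329 genes, 1309 were higher there. Without WT replicates 2 and 5 there were 7 higher and 4 lower members, and 1479 of 16359 tested genes were higher. Other choices gave more, with 12 higher for upper quartile factors, which added *Tpi1* and *Pkm*, and 14 higher in the Wald test of DESeq2, which added *Pygm* and *Phka1* as well. Over all genes these choices called 2495 of 16329 and 2753 of 18434 higher.

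**Figure D1:**
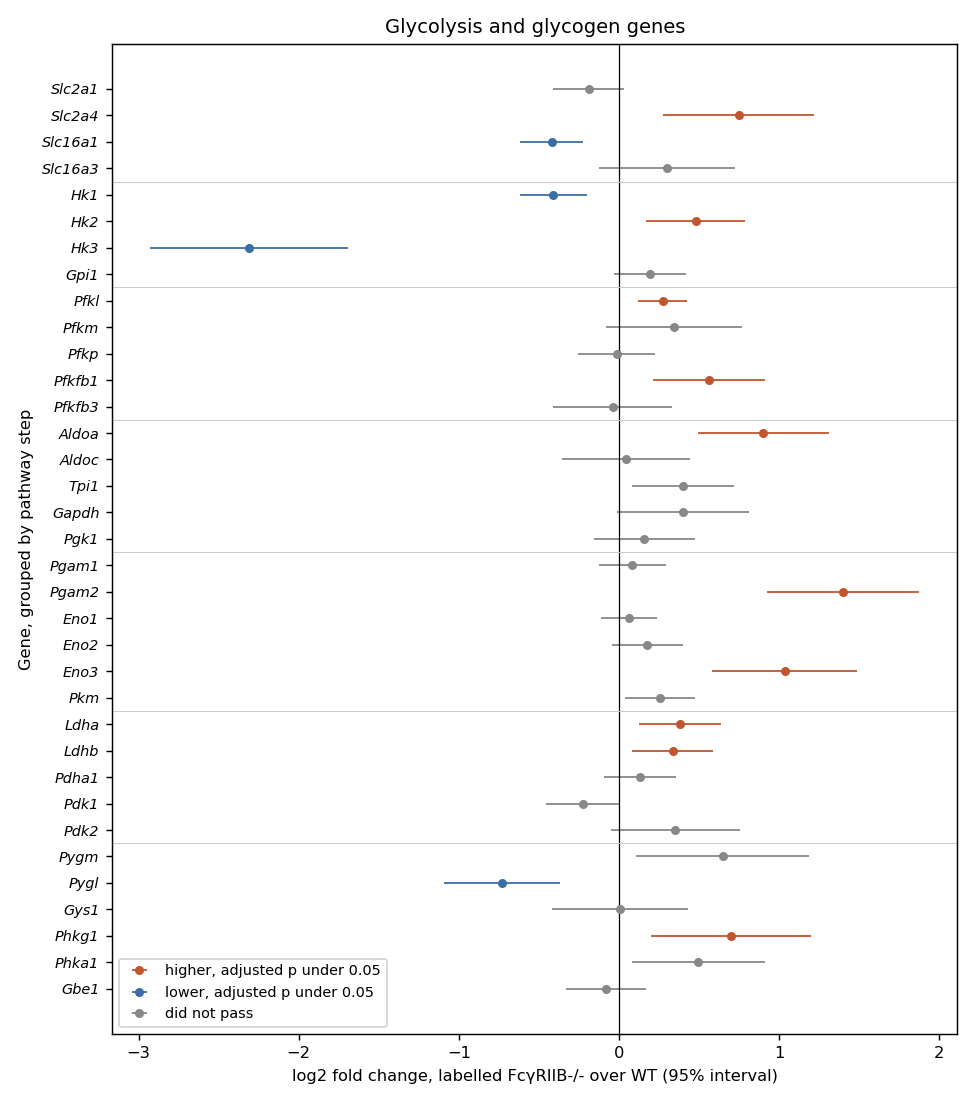
Log2 fold change of each of the 35 genes in the labelled libraries (n = 4) over WT (n = 5), with the 95% interval from edgeR's quasi-likelihood fit, genes being grouped by pathway step between the grey lines. Red points are the 10 higher genes, blue points the 4 lower genes and grey points the 21 that did not pass, and *Pgam2* at 1.40 and *Hk3* at -2.31 lie farthest from 0.

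The log2 fold change of a gene also varied with its annotated exon length, over the whole table and among these genes. Across 15967 tested genes with an annotated exon length, the log2 fold change and the length had a Spearman correlation of -0.28, given as a description across genes, which share these libraries and are not independent replicates. It was -0.53 over the 35 members and -0.80 over the 15 muscle markers. Genes under 2 kb were called higher in 26.7% and lower in 13.3% of 4051 cases, and genes of 2 kb or more were called higher in 9.65% and lower in 21.6% of 11916 cases. Shorter transcripts were therefore called higher more often, and longer ones lower. Of the members, 9 were under 2 kb, *Aldoa* with 1.82 kb among them, with 5 higher and 0 lower, and 26 were of 2 kb or more, with 5 higher and 4 lower. Of the 15 muscle markers, 6 of the 8 under 2 kb were higher, against 2 of the 7 at or over 2 kb. The part of length in the changes of the members was not tested, and exon lengths are given beside the isoforms below.

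Phosphoglycerate mutase moves the phosphate within phosphoglycerate, late in glycolysis, and its muscle gene *Pgam2* (gene identifier 56012, chromosome 11 of GRCm38 from 5801637 to 5803796) rose most of all members. *Pgam2* was at 207, 86.8, 161, 160 and 173 CPM in WT replicates 1 to 5 and at 495, 339, 357 and 471 CPM in replicates 1 to 4 of the labelled libraries. Every labelled library lay above every WT library, and WT replicate 2 was the lowest of all. The means were 158 ± 44.0 CPM (SD, n = 5) and 416 ± 78.9 CPM (SD, n = 4), a fold of 2.64. The log2 fold change was 1.40 (standard error 0.22, edgeR adjusted p = 0.00139). Without WT replicates 2 and 5 the log2 fold change of *Pgam2* was 1.26. *Pgam1*, the isoform of most other tissues, was at 26.8, 26.7, 23.5, 24.3 and 30.2 CPM in WT and at 26.6, 31.6, 24.7 and 28.7 CPM in the labelled libraries. These groups overlapped, and its log2 fold change of 0.08 (95% interval from -0.13 to 0.30) did not pass. *Pgam2* has 0.84 kb of exon and *Pgam1* 1.78 kb. Of the windows of 75 bases in the *Pgam1* transcript 40.6% also occur in other annotated genes, against 0% for *Pgam2*, so the count of *Pgam1* is the less certain of the pair.

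Enolase makes phosphoenolpyruvate in the next step, and its muscle gene *Eno3* (13808) also rose. *Eno3* was at 543, 241, 403, 454 and 481 CPM in WT replicates 1 to 5 and at 1067, 740, 795 and 882 CPM in the labelled libraries. Again no labelled library overlapped with WT. The means were 424 ± 115 CPM (SD, n = 5) and 871 ± 143 CPM (SD, n = 4). The log2 fold change was 1.04 (standard error 0.21, edgeR adjusted p = 0.00419), and without WT replicates 2 and 5 it was 0.92. *Eno1*, the isoform of most tissues, was at 206, 202, 214, 193 and 244 CPM in WT and at 232, 224, 216 and 214 CPM in the labelled libraries. Its log2 fold change of 0.06 (95% interval from -0.11 to 0.24) did not pass, and 65.4% of its windows also occur in other annotated genes. *Eno3* has 1.57 kb of exon and *Eno1* 2.55 kb. *Eno2*, the neuronal enolase, was between 18.0 and 24.2 CPM in all mice and did not pass (log2 fold change 0.18). *Pkm*, the pyruvate kinase of muscle and most other tissues, was between 711 and 892 CPM in WT and between 891 and 1092 CPM in the labelled libraries, and did not pass (log2 fold change 0.26, edgeR adjusted p = 0.07).

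**Figure D2:**
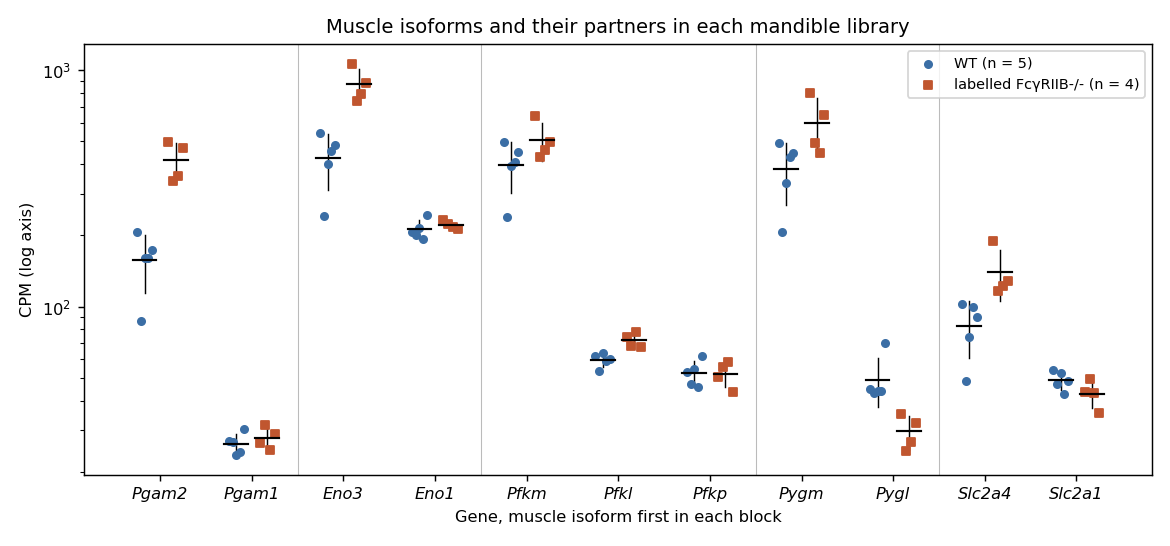
CPM on a log axis of each muscle isoform and its partners in every library, with WT as blue circles (n = 5) and the labelled libraries as red squares (n = 4). Horizontal lines are means and vertical lines 1 SD to each side. *Pgam2*, *Eno3* and *Slc2a4* lie higher in all 4 labelled libraries than in any WT library, *Pygl* lies lower in all 4, and *Pfkm* and *Pygm* overlap.

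Promoters of *Pgam2*, *Eno3*, *Pygm* and *Pgam1* are shown because the first 3 are muscle isoforms of which 2 rose, and the last is the partner of the gene that rose most. The sequences are the 250 bases before the transcript start from RefSeq (GRCm38.p6), written 5′ to 3′ on the strand of the gene. Capitals mark the E-box CAGCTG, a sequence bound by myogenic factors that is its own reverse complement, the core ACGTG of the hypoxia element on either strand, and a match to the MEF2 consensus.
*Pgam2* promoter, chr11:5803797-5804046, minus strand: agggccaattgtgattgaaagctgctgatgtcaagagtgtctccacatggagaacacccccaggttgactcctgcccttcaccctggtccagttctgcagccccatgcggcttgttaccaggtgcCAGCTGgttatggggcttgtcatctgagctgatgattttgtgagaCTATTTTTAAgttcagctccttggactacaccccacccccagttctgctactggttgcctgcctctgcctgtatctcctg
*Eno3* promoter, chr11:70656926-70657175, plus strand: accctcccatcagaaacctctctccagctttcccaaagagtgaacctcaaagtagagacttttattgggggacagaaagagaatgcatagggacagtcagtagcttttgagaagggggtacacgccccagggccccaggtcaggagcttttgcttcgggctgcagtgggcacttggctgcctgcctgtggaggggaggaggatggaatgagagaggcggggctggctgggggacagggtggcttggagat
*Pygm* promoter, chr19:6384158-6384407, plus strand: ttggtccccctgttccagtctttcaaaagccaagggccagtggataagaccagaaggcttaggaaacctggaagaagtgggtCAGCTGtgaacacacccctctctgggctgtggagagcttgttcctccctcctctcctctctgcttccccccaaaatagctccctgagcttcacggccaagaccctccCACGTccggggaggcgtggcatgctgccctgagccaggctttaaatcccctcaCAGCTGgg
*Pgam1* promoter, chr19:41911621-41911870, plus strand: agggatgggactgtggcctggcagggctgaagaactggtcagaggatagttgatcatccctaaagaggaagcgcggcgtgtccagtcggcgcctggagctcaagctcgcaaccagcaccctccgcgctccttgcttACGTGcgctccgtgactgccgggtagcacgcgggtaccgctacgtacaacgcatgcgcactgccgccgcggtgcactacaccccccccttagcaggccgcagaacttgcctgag

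In the *Pgam2* window the E-box began at -125 and the MEF2 match at -80, counted in bases from the transcript start. The *Pygm* window held an E-box at -168 and another at -8, with the hypoxia core at -61, and the *Pgam1* window held the hypoxia core at -114. None of the 3 motifs occurred in the *Eno3* window. That window lies inside the annotated locus of *Eno3* (chromosome 11 from 70653125 to 70662513), and the bases before the start of the locus were not examined. Promoters were given for 34 of the 35 members, and since several genes have more than one start there were 51 of them. The E-box was in 8 of the 51 (13% of all 32851 promoters), the hypoxia core in 18 (16.6% of all) and MEF2 in 2 (2.92% of all), namely *Pgam2* and 1 of the starts of *Pfkfb1*. These are matches of letters, and binding was not measured.

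Phosphofructokinase commits glucose to glycolysis, and here the liver isoform passed the test while the muscle isoform did not. *Pfkm* (18642) was at 495, 240, 393, 411 and 452 CPM in WT replicates 1 to 5 and at 637, 428, 459 and 498 CPM in the labelled libraries. The groups overlapped, and the log2 fold change of 0.34 did not pass (standard error 0.19, edgeR adjusted p = 0.189). *Pfkl*, the liver isoform, was at 61.6, 53.3, 63.6, 58.6 and 60.1 CPM in WT and at 74.1, 68.3, 77.8 and 67.3 CPM in the labelled libraries. All labelled libraries were above all WT libraries for *Pfkl*, and it rose by a log2 fold change of 0.27 (standard error 0.07, edgeR adjusted p = 0.0129), a small change that library totals alone left at 0.20 and short of the threshold (adjusted p = 0.0784). *Pfkp*, the platelet isoform, was at 52.9, 46.9, 54.3, 45.5 and 62.0 CPM in WT and at 50.1, 55.5, 58.0 and 43.6 CPM in the labelled libraries, and its log2 fold change was -0.01 (95% interval from -0.25 to 0.22). *Pfkfb1* makes and breaks fructose 2,6-bisphosphate, the activator of phosphofructokinase. It rose from between 4.53 and 7.28 CPM to between 7.24 and 10.1 CPM (log2 fold change 0.56, edgeR adjusted p = 0.0205, and 0.0578 without replicate 1 of the labelled libraries). *Pfkfb3*, an inducible enzyme of the same kind, was between 53.3 and 94.5 CPM in all mice and did not pass (log2 fold change -0.04).

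Glycogen phosphorylase releases glucose 1-phosphate from glycogen, and its liver isoform fell while its muscle isoform did not pass. *Pygm* (19309), the muscle isoform, was at 490, 207, 334, 430 and 446 CPM in WT replicates 1 to 5 and at 805, 493, 445 and 649 CPM in the labelled libraries. Replicate 3 of the labelled libraries fell within the WT range, and the log2 fold change of 0.65 did not pass (standard error 0.25, edgeR adjusted p = 0.0643), though it did with DESeq2 (adjusted p = 0.0206) and without WT replicate 1 (adjusted p = 0.0497). *Pygl* (110095), the liver isoform, was at 44.7, 43.1, 43.8, 44.0 and 69.8 CPM in WT and at 35.1, 24.5, 26.7 and 32.0 CPM in the labelled libraries. Every labelled library lay below every WT library, and WT replicate 5 was high. The log2 fold change of *Pygl* was -0.73 (standard error 0.16, edgeR adjusted p = 0.0076), and -0.55 without WT replicates 2 and 5 (adjusted p = 0.00945). Phosphorylase kinase switches the phosphorylase on. Its muscle catalytic subunit *Phkg1* rose from between 27.5 and 65.9 CPM to between 64.1 and 101 CPM (log2 fold change 0.70, edgeR adjusted p = 0.0366), although 26.5% of its exon bases overlap *Sumf2* on the opposite strand and its count is uncertain. *Phkg1* missed the threshold without replicate 1 or 4 of the labelled libraries or without WT replicate 3 or 5 (adjusted p between 0.0548 and 0.106). The muscle regulatory subunit *Phka1* had a log2 fold change of 0.50 and did not pass (edgeR adjusted p = 0.0647). On the side of synthesis, the glycogen synthase *Gys1* (between 59.3 and 116 CPM in all mice) had a log2 fold change of 0.01, and the branching enzyme *Gbe1* (between 20.0 and 31.1 CPM) one of -0.08, and neither passed.

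At the entry of glucose, the transporter of muscle and fat rose and the basal transporter did not pass. *Slc2a4* (20528), the insulin-responsive transporter GLUT4 of muscle and fat, was at 103, 48.4, 74.3, 99.3 and 90.1 CPM in WT replicates 1 to 5 and at 190, 117, 123 and 128 CPM in the labelled libraries. The groups did not overlap, and replicate 1 of the labelled libraries was far above the other 3. *Slc2a4* rose by a log2 fold change of 0.75 (standard error 0.21, edgeR adjusted p = 0.0218), which was 0.56 and short of the threshold without that replicate (adjusted p = 0.0668). Fat cells also make GLUT4, and their markers did not move together. *Fabp4*, which made up most of their sum, rose with no overlap (log2 fold change 1.05, edgeR adjusted p = 0.0020). *Adipoq* fell with no overlap (-1.53, edgeR adjusted p = 0.00307), and *Cfd* and *Cidec*, with group means between 0.42 and 2.23 CPM, did not pass. The part of fat cells in the rise of *Slc2a4* was not tested. *Slc2a1*, the basal transporter GLUT1, was at 53.8, 47.0, 52.1, 42.8 and 48.3 CPM in WT and at 43.6, 49.3, 42.9 and 35.4 CPM in the labelled libraries, and its log2 fold change of -0.19 did not pass (95% interval from -0.41 to 0.03).

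Hexokinases trap glucose as its phosphate, and the 3 members differed in direction. *Hk2*, the main form of muscle, rose from between 63.4 and 113 CPM to between 118 and 147 CPM with no overlap (log2 fold change 0.48, edgeR adjusted p = 0.0245, and 0.071 without replicate 1 of the labelled libraries). *Hk1*, the form of most tissues and of red cells, fell from between 106 and 136 CPM to between 73.8 and 92.5 CPM (log2 fold change -0.41, edgeR adjusted p = 0.00871). *Hk3* (212032), the form of white blood cells, had the largest change of all members. It was at 17.6, 15.9, 12.6, 15.5 and 27.0 CPM in WT replicates 1 to 5 and at 5.22, 2.08, 3.56 and 3.29 CPM in the labelled libraries. All labelled libraries were lower than any WT library. The means were 17.7 ± 5.48 CPM (SD, n = 5) and 3.54 ± 1.29 CPM (SD, n = 4). The log2 fold change was -2.31 (standard error 0.28, edgeR adjusted p = 4.86e-04), and -2.07 without WT replicates 2 and 5. The lower sums of neutrophil and myeloid, of erythroid and of keratinized epithelium markers moved with the falls of *Hk3*, *Hk1* and *Pygl*. WT replicate 5 was the highest mouse for all 3 genes. It had the highest myeloid sum and also the highest keratinized epithelium sum (19861 CPM). Its erythroid sum was not the highest (2162 CPM, against 2234 in WT replicate 1). The part of these cells in the falls was not tested. *Gpi1*, which turns glucose 6-phosphate into fructose 6-phosphate, was between 212 and 323 CPM in all mice and did not pass (log2 fold change 0.20).

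The triose steps lie between phosphofructokinase and the mutase, and 1 of their 5 members passed. *Aldoa* (11674), the aldolase of muscle and red cells, was at 2214, 1202, 1737, 1930 and 2065 CPM in WT replicates 1 to 5 and at 3901, 2990, 2760 and 4024 CPM in the labelled libraries. Every labelled library was above every WT library. The log2 fold change was 0.90 (standard error 0.19, edgeR adjusted p = 0.00497), and 0.82 without WT replicates 2 and 5. *Aldoc*, the brain aldolase, was between 4.15 and 6.94 CPM in all mice, with a log2 fold change of 0.05 that did not pass. *Tpi1* interconverts the triose phosphates and had a log2 fold change of 0.40 (edgeR adjusted p = 0.055), just short of the threshold, which it passed without WT replicate 1 or 5 or labelled replicate 4 (adjusted p between 0.0342 and 0.0495). *Pgk1*, which makes the first ATP of the pathway, had one of 0.16 and did not pass. *Gapdh* had between 2.89 and 6.27 CPM in all mice. Of its windows 80.3% also occur in other annotated genes, 121 in number, so its count cannot be read as its expression. For *Pgk1* the share of such windows was 67.5%.

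At the end of the pathway, lactate dehydrogenase and the lactate transporters tie pyruvate to lactate. *Ldha*, the muscle-type subunit, rose from between 382 and 553 CPM to between 551 and 684 CPM (log2 fold change 0.38, edgeR adjusted p = 0.0288). *Ldhb*, the heart-type subunit, rose from between 91.4 and 141 CPM to between 147 and 168 CPM (log2 fold change 0.34, edgeR adjusted p = 0.0443). Both subunits rose in the full comparison. Neither passed with library totals alone (adjusted p = 0.0744 and 0.138) or without replicate 1, 2 or 3 of the labelled libraries (adjusted p between 0.0615 and 0.0793). *Ldha* also missed the threshold without WT replicate 3 or 4 (adjusted p = 0.0536 in both), and *Ldhb* without WT replicate 1 (adjusted p = 0.0673) or labelled replicate 4 (adjusted p = 0.107). *Slc16a1*, the monocarboxylate transporter MCT1 found in most tissues, fell from between 68.5 and 79.2 CPM to between 47.0 and 62.6 CPM (log2 fold change -0.42, edgeR adjusted p = 0.00549). *Slc16a3*, the MCT4 of glycolytic muscle, was between 24.5 and 51.6 CPM and did not pass (log2 fold change 0.30). Entry of pyruvate into the mitochondrial pathway is set by pyruvate dehydrogenase and the kinases that switch it off. Its subunit *Pdha1* had a log2 fold change of 0.13, and the kinases *Pdk1* and *Pdk2* had -0.23 and 0.35, and none of the 3 passed.

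Ratios of isoforms within a library do not depend on how the libraries were scaled, and 6 pairs were compared. The log2 ratio of *Pgam2* to *Pgam1* was 2.95, 1.70, 2.78, 2.72 and 2.52 in WT replicates 1 to 5 and 4.22, 3.43, 3.85 and 4.03 in the labelled libraries. No labelled library overlapped with WT, and the difference of the means was 1.35 (two-sided exact permutation test, p = 0.00794, adjusted p = 0.0159 over the 6 pairs). This p is the smallest that the 126 splits of 9 mice allow. For *Eno3* to *Eno1* the difference of the log2 ratios was 1.01, and for *Pygm* to *Pygl* it was 1.39, with the same exact permutation p in both and 4 of 4 labelled libraries above all WT libraries. *Pygm* and *Pygl* are of like exon length, 2.87 and 3.34 kb. The ratio of *Slc2a4* to *Slc2a1* (2.81 and 3.26 kb) differed by 0.97, also with 4 of 4 libraries above WT (exact permutation test, p = 0.0159, adjusted p = 0.0238). The pairs of *Pfkm* did not pass. Its log2 ratio to *Pfkp* differed by 0.38 (exact permutation test, p = 0.175, adjusted p = 0.21), and its log2 ratio to *Pfkl* by 0.10 (exact permutation test, p = 0.659, adjusted p = 0.659). Without WT replicates 2 and 5 the differences of the 4 separated pairs were 1.07, 0.78, 1.09 and 0.80 in the order given, and with 3 WT mice left none of them passed (adjusted p between 0.0571 and 0.0857). Without replicate 1 of the labelled libraries none of the 4 passed either (adjusted p between 0.0536 and 0.0804). With fewer mice there are fewer splits and the smallest possible p is larger. When 1 mouse was left out in turn, *Pgam2* to *Pgam1*, *Eno3* to *Eno1* and *Pygm* to *Pygl* each passed in 8 of 9 cases. These 3 ratios missed the threshold only without replicate 1 of the labelled libraries, though leaving out another labelled replicate gives as many splits. The ratio of *Slc2a4* to *Slc2a1* passed in 7 of 9 cases.

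**Figure D3:**
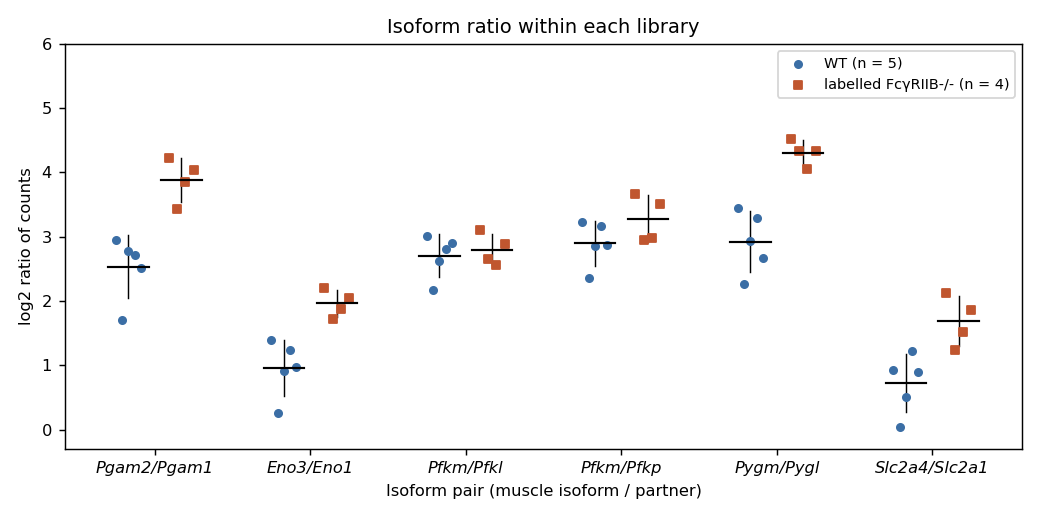
Log2 ratio of the counts of each muscle isoform to its partner in every library, with WT as blue circles (n = 5) and the labelled libraries as red squares (n = 4). Horizontal lines are means and vertical lines 1 SD to each side, and all 4 labelled libraries lie above all WT libraries for *Pgam2*/*Pgam1*, *Eno3*/*Eno1*, *Pygm*/*Pygl* and *Slc2a4*/*Slc2a1* but not for the *Pfkm* pairs.

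Levels of isoforms of a step can be compared per kb of exon, which gives the share of the muscle gene in the step. For the mutase, *Pgam2* made up between 87.3% and 94.2% of the summed CPM per kb in WT and between 95.8% and 97.5% in the labelled libraries. For enolase, *Eno3* made up between 64.2% and 79.7% of the sum with *Eno1* and *Eno2* in WT and between 83.1% and 87.4% in the labelled libraries. Both shares rest on how reads of the shared windows of *Pgam1* and *Eno1* were counted. If such reads were left out, the partners are understated, and for enolase the order of *Eno3* and *Eno1* is then uncertain. *Pygm* made up between 70.2% and 85.2% of phosphorylase in WT and between 87.8% and 91.9% in the labelled libraries, the brain isoform *Pygb* included. *Pfkm* made up between 76.0% and 85.1% of phosphofructokinase in WT and between 81.7% and 87.1% in the labelled libraries, with overlap. *Slc2a4* made up between 54.5% and 72.9% of its sum with *Slc2a1* in WT and between 73.3% and 83.5% in the labelled libraries. Per kb, with *Gapdh*, *Pgk1* and *Eno1* uncertain for their shared windows, the members with the highest mean level in WT were *Aldoa*, *Pkm*, *Eno3*, *Ldha* and *Pgam2* in this order (1003, 313, 271, 257 and 188 CPM per kb), and in the labelled libraries they were *Aldoa*, *Eno3*, *Pgam2*, *Pkm* and *Ldha* (1874, 556, 495, 374 and 334 CPM per kb). *Hk3* had the lowest level of all 35 in the labelled libraries (1.05 CPM per kb).

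Because muscle markers differed between the groups, the muscle isoforms were also set against them. The mean log2 CPM of the 15 markers was between 8.85 and 10.1 in WT and between 10.1 and 11.0 in the labelled libraries, a difference of 0.88 (two-sided exact permutation test, p = 0.0159). Relative to this mean, *Pgam2* was at -2.40, -2.41, -2.24, -2.65 and -2.45 on the log2 scale in WT replicates 1 to 5 and at -2.06, -1.74, -1.74 and -1.98 in the labelled libraries. All 4 labelled libraries were above WT, and the difference was 0.55 (exact permutation test, p = 0.00794, adjusted p = 0.0198 over 5 genes). *Pfkm* went the other way, with all 4 labelled libraries below WT and a difference of -0.52 (exact permutation test, p = 0.00794, adjusted p = 0.0198). *Pygm* was also lower relative to the markers, with a difference of -0.21 and 3 of 4 labelled libraries below all WT mice (exact permutation test, p = 0.0159, adjusted p = 0.0265). *Eno3* (difference 0.19, adjusted p = 0.228) and *Slc2a4* (difference -0.11, adjusted p = 0.484) did not pass the exact permutation test. These differences depended on the length of the markers, a choice made after the values were seen. Against the 8 markers under 2 kb the difference of *Pgam2* was 0.35, and against the 7 of 2 kb or more it was 0.78, and it passed in both (adjusted p = 0.00992 and 0.0198 in the exact permutation test). For *Pfkm* it was -0.72 against the short markers and passed, and -0.28 against the long markers and did not (adjusted p = 0.159 in the exact permutation test). *Pygm* had -0.42 against the short and 0.02 against the long markers, so its direction was lost. *Eno3* had -0.01 against the short markers and 0.42 against the long ones, and passed against the long ones alone (adjusted p = 0.0198 in the exact permutation test). *Slc2a4* had -0.32 and 0.12, and passed against the short ones alone (adjusted p = 0.00992 in the exact permutation test). Of the 5 genes, *Pgam2* alone passed in the same direction against both sets of markers. The markers nearest to its 0.84 kb were *Tnnc2*, *Mylpf*, *Tnni2* and *Tcap*, of 0.70 to 0.95 kb. Their log2 fold changes were 1.37, 1.10, 1.37 and 1.39, against 1.40 for *Pgam2*. *Mb*, *Acta1* and *Casq1*, of 1.42 to 1.85 kb in the same short set, had between 0.72 and 0.80. *Pgam2* was not tested against markers of its own length alone.

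**Figure D4:**
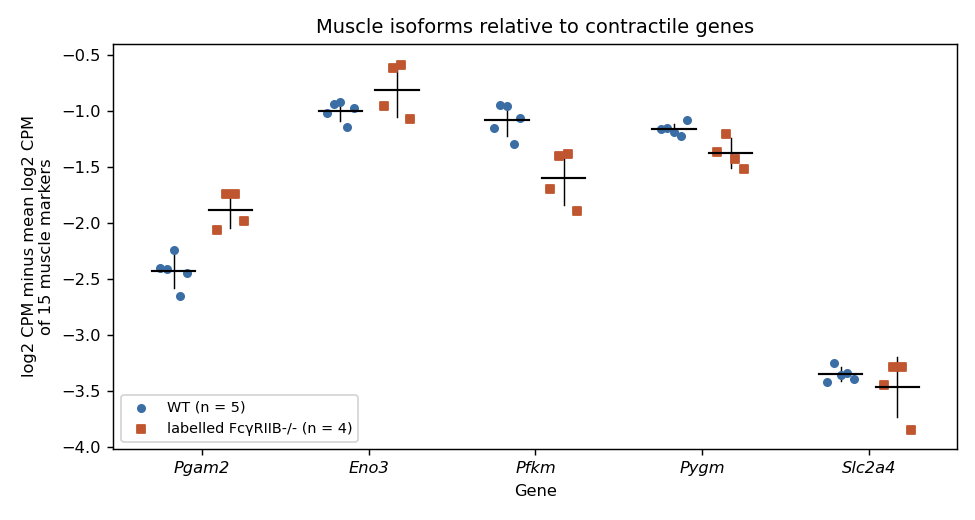
Log2 CPM of the 5 muscle isoforms minus the mean log2 CPM of the 15 skeletal muscle markers in every library, with WT as blue circles (n = 5) and the labelled libraries as red squares (n = 4). Horizontal lines are means and vertical lines 1 SD to each side, and *Pgam2* lies higher and *Pfkm* lower in all 4 labelled libraries than in WT, the latter not passing against markers of 2 kb or more.

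Beyond these members, 45 further genes of glucose and glycogen metabolism were listed, and 39 passed the filter on low counts. Of the 39, 6 were higher (15.4%), 6 were lower (15.4%) and 27 did not pass, with a median log2 fold change of 0.01. The shares were close to those of the whole table in the upward direction and somewhat below in the downward direction. The largest rises were those of *Pdk4*, a kinase that shuts pyruvate dehydrogenase in fasting muscle (log2 fold change 0.78, adjusted p = 0.0132), *Mpc2*, a subunit of the mitochondrial pyruvate carrier (0.66, adjusted p = 0.00239), and the gene listed as *Pgm2*, a phosphoglucomutase (0.61, adjusted p = 0.0208), all in the edgeR fit. The largest fall was that of *Pklr*, the pyruvate kinase of liver and red cells. It had between 120 and 170 counts per mouse in WT and 5, 1, 2 and 7 counts in the labelled libraries, a log2 fold change of -5.01 (standard error 0.36, edgeR adjusted p = 4.85e-05). Next came *Slc2a3*, the high-affinity transporter GLUT3 (-0.80, adjusted p = 9.45e-04), and *Adpgk*, an ADP-dependent glucokinase (-0.68, edgeR adjusted p = 0.00335). The groups did not overlap in these 3 lower genes. Erythroid markers were lower along with *Pklr*, and their part in its fall was not tested. *Ldhd*, *Pdhb* and *Phkg2* were the other 3 higher genes, and *Pygb*, *Ppp1r3b* and *Ppp1r3d* the other 3 lower ones. Among the listed genes with too few counts to be tested were *Gapdhs*, *Pgk2*, *Ldhc*, *Gys2* and *Fbp1*.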

How the data were processed

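Poly(A) RNA of whole mandibles with teeth was sequenced from 5 WT mice and 4 mice labelled *FcγRIIB*-/-. The authors used Trim Galore to trim reads, HISAT 02.1.0 for mapping to mm10 and featureCounts to count per gene. They deposited raw counts, and 1 column that matches no labelled sample was not used. The annotation, strand setting and treatment of multiply mapped reads are not given in the sources used here, so counts of genes with near-identical copies or overlapping genes are uncertain. Rows with no gene symbol (1030, with 0.0971% of counts) have gene identifiers and were kept.

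Counts were analysed with R 4.3.3 and edgeR 4.0.16, with filterByExpr (minimum count 10) and TMM normalization. Genotype was tested without covariates by the quasi-likelihood method, and p-values were adjusted by Benjamini and Hochberg's procedure over 16329 genes at 0.05. Standard errors were derived from the F statistic. Values in log2 CPM used a prior count of 2, and isoform ratios added 0.5 to each count. Ratios and levels relative to markers were tested by two-sided exact permutation over 126 splits. DESeq2 1.42.0 was an alternative. The test was tried on simulated data in which 200 of 16228 genes changed by a log2 fold change of 1. It called 77.2% of these, and 6.17% of its calls were false. Smaller changes, such as that of *Pfkl* (0.27), were not simulated. No pair of libraries of a group agreed within sampling noise. The replicates are separate samples by their labels, and p-values measure the spread between these samples.

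Exon lengths are merged exons of GENCODE, of the longest gene where a symbol has several, whose transcripts also gave the shared windows of 75 bases, and promoters are from RefSeq. All members are accounted for. Values per mouse are given for the isoform pairs and for the 5 largest changes among those past the threshold, and 3 genes in each direction are named with values from the other pathway genes. Markers named singly were chosen after their values were seen. The members and lists were chosen with earlier results of these data known. Alternatives covered normalization, the filter, the test, a replicate block, single mice, WT replicates 2 and 5 together, pseudocounts and the choice of markers.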

Additional observations from a re-analysis of the deposited data

Results flagged for a closer look

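In 4 of 92 groups of values examined (the CPM of each member, the isoform ratios and the levels relative to muscle markers, in each genotype), 1 mouse lay far from the others by Dixon's criterion, and chance alone flags about 1 in 20 such groups. *Hk1* was at 136 CPM in WT replicate 5, while the remaining WT mice had 106 to 109. *Pygl* was at 69.8 CPM in the same mouse, the rest of WT having 43.1 to 44.7. *Slc2a4* was at 190 CPM in replicate 1 of the labelled libraries and between 117 and 128 in the other 3. *Gbe1* was at 20.0 CPM in replicate 4 of the labelled libraries and between 26.0 and 26.6 in the other 3.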

How the results depend on the processing

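Over 16 alternatives for each member, *Aldoa*, *Pgam2* and *Eno3* remained higher and *Slc16a1*, *Hk1*, *Hk3* and *Pygl* lower in each. Of all 560 values of members under these alternatives, 489 kept their direction and side of the threshold, 26 lost the threshold, 18 gained it and 27 changed sign. The sign changed only for *Pfkp*, *Aldoc*, *Eno1*, *Gys1*, *Pfkfb3* and *Gbe1*, of which none passed in any alternative. These log2 fold changes were 0.0035 for *Pfkp* with upper quartile factors, and with library totals alone -0.037 for *Aldoc*, -0.0091 for *Eno1* and -0.070 for *Gys1*. Library totals also left 5 members higher, against 12 with upper quartile factors and 14 with DESeq2, and moved the median of all genes to -0.07. Without WT replicates 2 and 5 *Pfkp* was at 0.049, *Pfkfb3* at 0.0055, *Aldoc* at -0.065 and *Gys1* at -0.068, and 3 of the other pathway genes were higher. There the differences of isoform ratios were 1.07 for *Pgam2*/*Pgam1*, 0.78 for *Eno3*/*Eno1*, 1.09 for *Pygm*/*Pygl*, 0.80 for *Slc2a4*/*Slc2a1* and -0.014 for *Pfkm*/*Pfkl*, and those relative to muscle markers were 0.55 for *Pgam2*, -0.46 for *Pfkm* and -0.18 for *Pygm*, the called ones all short of the threshold. Against markers under 2 kb *Eno3* was at -0.014 and *Slc2a4* at -0.32, and against longer markers *Eno3* was at 0.42, *Pfkm* at -0.28, *Pygm* at 0.020 and *Slc2a4* at 0.12. The cause of these shifts was not tested.

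With 1 mouse left out in turn, 4 to 11 members were higher and 4 to 5 lower, 5 to 11 muscle markers and 6 to 13 of all cell type markers were higher. The lowest numbers higher, 4, 5 and 6, came without replicate 1 of the labelled libraries. The share of members higher there was close to that of all genes tested (1854 of 16493). The ratio differences ran from 1.14 to 1.503 for *Pgam2*/*Pgam1*, 0.83 to 1.12 for *Eno3*/*Eno1*, -0.038 to 0.18 for *Pfkm*/*Pfkl*, 1.22 to 1.52 for *Pygm*/*Pygl* and 0.80 to 1.11 for *Slc2a4*/*Slc2a1*. Relative to muscle markers the ranges were 0.49 to 0.61 for *Pgam2*, -0.59 to -0.41 for *Pfkm*, -0.27 to -0.17 for *Pygm* and -0.18 to 0.014 for *Slc2a4*. Of the 9 tests with 1 mouse fewer, *Pgam2*/*Pgam1*, *Eno3*/*Eno1* and *Pygm*/*Pygl* each passed in 8 and *Slc2a4*/*Slc2a1* in 7. Relative to muscle markers *Pgam2* and *Pfkm* each passed in 5 and *Pygm* in 2. No ratio passed without replicate 1 of the labelled libraries. Tests with 1 mouse fewer, and those without WT replicates 2 and 5, have fewer splits, so the smallest possible p is larger there. The log2 fold changes with changed signs ran from -0.072 to 0.077 for *Pfkp*, -0.17 to 0.094 for *Pfkfb3*, -0.064 to 0.17 for *Aldoc*, -0.17 to 0.14 for *Gys1* and -0.12 to 0.0098 for *Gbe1*.

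The replicate number as a block gave 14 higher and 4 lower members, 14 higher muscle markers and 16 higher markers of all cell types, with *Pfkp* at 0.049 and *Aldoc* at -0.034. Over all 16329 genes that fit called 1594 higher and 2410 lower. Mice sharing a number had correlations of their deviations from the group means between -0.114 and 0.0969, and 1 of the 4 WT mice with a partner correlated best with its own number, so that the numbers were not taken as pairs. Levels under about 10 CPM (*Hk3* in the labelled libraries, *Pfkfb1*, *Aldoc*, *Gapdh*) rest on fewer reads than those of the other members. Of all members *Hk3* had the largest standard error of the log2 fold change (0.28). Those of *Pfkfb1* (0.16), *Aldoc* (0.18) and *Gapdh* (0.19) were smaller than those of *Pgam2* (0.22) and *Pygm* (0.25), which had far more reads.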
